A study of Rattus norvegicus with 30 samples.

Results

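Glutathione transferases join the tripeptide glutathione to electrophilic compounds, which makes them more soluble and ready for export from the cell. This account covers 10 rat genes of that family in liver: Gsta3 and Gsta4 of the alpha class, Gstm1, Gstm2, Gstm3 and Gstm4 of the mu class, Gstp1 of the pi class, Gstt1 and Gstt2 of the theta class, and Gstk1 of the kappa class. They were chosen by the gene symbol of the array's platform table, and 11 probe sets of the 31042 tested carried one of these symbols alone. Gstt2 had 2 probe sets and every other gene had 1. All 10 genes were read among 14217 genes, each through the probe set with the highest mean over all arrays, and no filter on low values was applied to them.

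The livers came from Wistar Han rats given DE-71, a commercial flame retardant made of polybrominated diphenyl ethers, or PBDE, with corn oil as vehicle. Dams were gavaged daily (7 days per week) with 50 mg/kg, or with 0 mg/kg as control, in a volume of 5 ml/kg, starting on gestation day 6 and ending on postnatal day 21. Pups also received the dose themselves up to the same day, and weaned animals were dosed 5 days a week. There were 6 groups of 5 livers: PBDE and control adult males at week 13, PBDE and control male pups on postnatal day 22, and PBDE and control female pups on postnatal day 22. The control groups received corn oil by the same route, and all groups were of the same strain. No adult females were among the groups. Each pup was from a different dam, as was each adult within its dose group, so the 5 arrays of a group are separate animals. Each array was hybridised with RNA from 1 liver after a 2-cycle labelling of 50 ng total RNA from the 3′ end.

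All values are log2 RMA expression values, so a difference of 1 is a doubling, and levels are compared between groups within a gene and never between genes. The array names divide the 30 arrays into 2 batches. The first held PBDE male pups, control male pups and control female pups, and the second held PBDE female pups and both adult groups. The PBDE comparison therefore lay within 1 batch for adult males and for male pups. For female pups, batch and dose cannot be told apart. The array medians ran between 5.72 and 5.77, and the correlation of an array with the mean of its own group ran between 0.988 and 0.994. All 9 hepatocyte marker genes that were read, albumin among them, lay above the array median in every group. This was bulk liver RNA, so fewer cells of a type and less RNA per cell cannot be told apart.

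In rat liver the alpha and mu enzymes are abundant proteins of hepatocytes, and several of them are induced by foreign compounds. Known routes of induction run through the oxidant-sensing factor NRF2, which binds antioxidant response elements, through the aryl hydrocarbon receptor, which binds xenobiotic response elements, and through the nuclear receptors CAR and PXR. In rat liver the Gstp1 protein is the standard marker of preneoplastic foci. The theta enzymes act on small halogenated compounds among other substrates, and the kappa enzyme resides in mitochondria and peroxisomes.

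The RefSeq windows around the start of each gene, from 250 bases before it to 50 bases from it on, were available for 8 of the 10 genes in build GRCr8 and numbered 9, since Gsta3 had 2. A pair of core motifs was searched on both strands: TGACNNNGC for the antioxidant response element and GCGTG for the xenobiotic response element. The first stood in 2 of the 9 windows and in 12.1% of all 33469 windows of the same length, and the second in 4 of the 9 and in 29.7% of all. The 4 windows below are shown because their genes carry the main patterns: Gsta3 changed most in adults, Gsta4 changed in all 3 dose comparisons, Gstm2 changed in pups, and Gstp1 varied most between animals. Capitals mark a match to either core, written 5′ to 3′ on the strand of the gene. The windows are chr9:31154739-31155038 on the plus strand for Gsta3, chr8:87947015-87947314 on the plus strand for Gsta4, chr2:198316868-198317167 on the minus strand for Gstm2 and chr1:210769656-210769955 on the minus strand for Gstp1.
Gsta3: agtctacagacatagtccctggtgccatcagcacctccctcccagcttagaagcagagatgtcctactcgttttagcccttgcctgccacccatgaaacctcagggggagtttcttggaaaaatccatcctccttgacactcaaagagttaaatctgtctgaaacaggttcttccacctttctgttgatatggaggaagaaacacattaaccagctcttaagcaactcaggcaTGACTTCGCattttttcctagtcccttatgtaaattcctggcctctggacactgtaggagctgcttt
Gsta4: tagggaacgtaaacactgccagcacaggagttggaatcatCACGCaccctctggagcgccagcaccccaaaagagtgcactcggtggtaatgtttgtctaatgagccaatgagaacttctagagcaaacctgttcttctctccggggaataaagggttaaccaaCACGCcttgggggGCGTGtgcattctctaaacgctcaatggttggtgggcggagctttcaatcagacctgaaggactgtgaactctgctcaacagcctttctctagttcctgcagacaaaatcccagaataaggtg
Gstm2: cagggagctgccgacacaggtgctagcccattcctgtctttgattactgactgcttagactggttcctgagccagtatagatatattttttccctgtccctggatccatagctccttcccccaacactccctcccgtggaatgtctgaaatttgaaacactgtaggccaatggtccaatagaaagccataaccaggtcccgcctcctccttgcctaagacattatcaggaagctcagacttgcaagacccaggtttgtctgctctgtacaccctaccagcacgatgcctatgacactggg
Gstp1: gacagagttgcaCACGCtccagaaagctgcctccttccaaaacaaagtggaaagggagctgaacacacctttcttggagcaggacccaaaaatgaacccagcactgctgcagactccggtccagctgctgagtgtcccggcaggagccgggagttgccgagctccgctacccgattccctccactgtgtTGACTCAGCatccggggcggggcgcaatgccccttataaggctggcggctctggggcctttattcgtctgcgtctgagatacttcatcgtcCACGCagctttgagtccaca
The Gsta3 window held the antioxidant core, beginning 17 bases before the start, and the Gstp1 window held it beginning 61 bases before the start. The Gsta4 window held 3 matches to the xenobiotic core, the Gstp1 window held 2, and the Gstm2 window held neither core. The windows of Gstm1, Gstm3 and Gstk1 held neither core, that of Gstm4 held 2 xenobiotic cores, and the second window of Gsta3 held 1. A match is a match of letters only.

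Several of these genes are neighbours. In GRCr8, Gstm3, Gstm2, Gstm1 and Gstm4 follow each other as protein-coding genes on chromosome 2, Gsta3 stands next to Gsta1 on chromosome 9, and Gsta4 next to Gsta5 on chromosome 8. Gstt1 and Gstt2 both lie on chromosome 20, Gstp1 stands next to Gstp3 on chromosome 1, and Gstk1 lies on chromosome 4. Transcripts of such closely related genes may share signal on a probe set, and this was not tested here.

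PBDE livers had higher levels of several glutathione transferases at both ages. In adult males Gsta3, Gsta4 and Gstm3 rose. In male pups Gsta4, Gstm1, Gstm2, Gstm3 and Gstt1 rose, and in female pups Gsta4, Gstm1, Gstm2 and Gstt1 rose. None of the 10 fell in any dose comparison, where 2.04% of all genes fell in adults, 3.26% in male pups and 2.18% in female pups. Calls were made by limma with Benjamini-Hochberg adjustment over all 31042 probe sets, at a false discovery rate of 0.05 in adults and 0.01 in pups. The share of all genes called higher was 1.86% in adults against 3 of 10 here, 4.23% in male pups against 5 of 10, and 3.95% in female pups against 4 of 10. The median PBDE-minus-control difference of the 10 genes was 0.21 in adults, 0.80 in male pups and 0.74 in female pups, on the log2 scale, where the median of all genes was 0.01, 0.02 and 0.02. By class, both alpha genes rose in adults and 1 of the 2 in each pup comparison. Of the 4 mu genes 1 rose in adults, 3 in male pups and 2 in female pups, and of the 2 theta genes 0 rose in adults and 1 in each pup comparison. The pi and kappa genes passed in none of them.

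**Figure D1:**
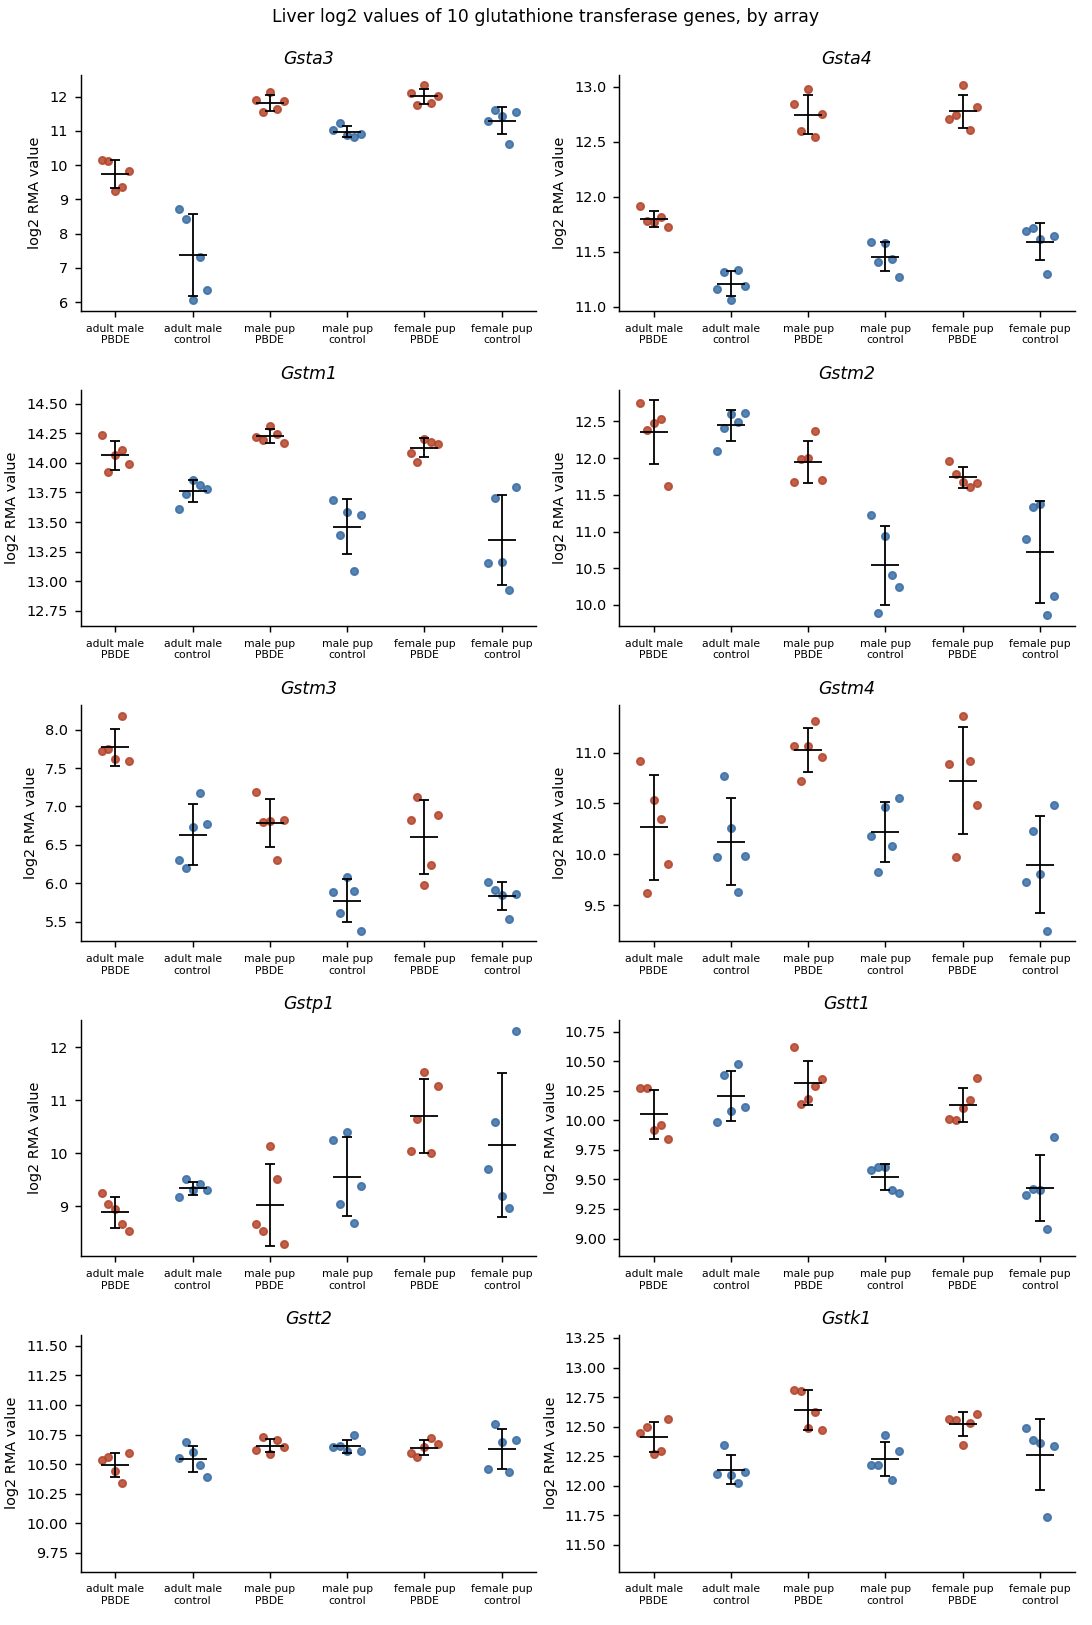
Log2 expression of the 10 glutathione transferases on every array, 1 panel per gene with its own vertical scale. Points are single livers and bars are group means; PBDE groups stand left of their controls for adult males, male pups and female pups, 5 livers each. Gsta3 lies lowest in control adults, between 6.06 and 8.72, and Gstt2 lies at about the same level in all 6 groups.

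Gsta3, an alpha enzyme, showed the largest PBDE difference of the 10 genes in adults. PBDE adults had 10.15, 10.12, 9.26, 9.35 and 9.82, against 8.72, 8.44, 6.06, 7.33 and 6.35 in control adults. Every PBDE adult lay above every control adult, and the control adults were spread widely, with 2 animals well above the other 3. The difference was 2.36 ± 0.33 (SE, n = 5 each; limma adjusted p = 4.67e-05), a 5.14-fold higher level with a 95% interval of 1.69 to 3.03 on the log2 scale. Leaving out any 1 of these 10 animals gave between 2.03 and 2.70, and the call held. The SE and interval use a spread shared over all groups. The SD was 1.20 in control adults and 0.42 in PBDE adults, so both may be too narrow for adults. Over the alternative settings of the fit and the leave-outs, the limma adjusted p ran between 1.50e-06 and 0.0367.

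In pups Gsta3 was high in both groups. PBDE male pups had 11.89, 11.56, 12.14, 11.63 and 11.87, against 11.03, 11.22, 10.89, 10.84 and 10.92 in control male pups. The male groups did not overlap, yet the difference of 0.84 ± 0.33 did not pass in limma with the spread shared over all 30 arrays (adjusted p = 0.104). With the 2 male pup groups fitted alone it passed (adjusted p = 6.63e-04), a fit without the widely spread control adults. PBDE female pups had 12.09, 11.76, 12.33, 11.82 and 12.02, against 11.29, 11.62, 11.43, 10.62 and 11.54 in control female pups. The female groups did not overlap either, and the difference was 0.71 ± 0.33 (limma adjusted p = 0.215).

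Gsta4, the alpha enzyme that conjugates 4-hydroxynonenal, a product of lipid peroxidation, rose in all 3 dose comparisons. PBDE adults had 11.91, 11.78, 11.77, 11.82 and 11.72, against 11.16, 11.31, 11.06, 11.33 and 11.19 in control adults. The male pups had 12.85, 12.60, 12.98, 12.55 and 12.76 under PBDE, against 11.59, 11.41, 11.58, 11.43 and 11.27 in control male pups. The female pups had 12.71, 12.74, 13.01, 12.61 and 12.81 under PBDE, against 11.69, 11.72, 11.61, 11.30 and 11.65 in control female pups. The groups were apart in every comparison, with a gap larger than the range of either group in both sets of pups. The difference was 0.59 ± 0.09 in adults (limma adjusted p = 1.86e-04, 1.50-fold), 1.29 ± 0.09 in male pups (adjusted p = 3.71e-11, 2.45-fold) and 1.18 ± 0.09 in female pups (adjusted p = 4.02e-10, 2.27-fold), each SE over n = 5 against 5 animals. Leaving out any 1 animal of the compared groups kept it between 0.55 and 0.62, 1.23 and 1.34, and 1.11 and 1.23.

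Gstm1, a major mu enzyme of liver, rose in pups of both sexes. Gstm1 in PBDE male pups was 14.22, 14.19, 14.32, 14.24 and 14.17, against 13.69, 13.39, 13.58, 13.08 and 13.56 in control male pups. Gstm1 in PBDE female pups was 14.08, 14.01, 14.21, 14.18 and 14.16, against 13.16, 13.71, 13.17, 12.92 and 13.80 in control female pups. The PBDE pups lay close together near the top of the range and the control pups below them were more scattered. The difference was 0.77 ± 0.12 in male pups (limma adjusted p = 6.91e-05, 1.70-fold) and 0.78 ± 0.12 in female pups (adjusted p = 6.35e-05, 1.71-fold). PBDE adults had 14.24, 13.92, 14.07, 14.11 and 13.99, against 13.61, 13.74, 13.86, 13.81 and 13.78 in control adults. The adult groups did not overlap, but the difference of 0.30 ± 0.12 did not pass (adjusted p = 0.186).

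Gstm2, the other major mu enzyme, had the largest PBDE difference of the 10 genes in male pups. Gstm2 in PBDE male pups was 11.68, 11.98, 11.9998, 12.37 and 11.70, against 11.22, 9.89, 10.93, 10.41 and 10.25 in control male pups. All PBDE male pups lay above all control male pups, and the difference was 1.41 ± 0.25 (limma adjusted p = 3.12e-04, 2.65-fold). Gstm2 in PBDE female pups was 11.96, 11.79, 11.68, 11.61 and 11.65, against 10.90, 11.33, 11.37, 9.86 and 10.13 in control female pups. These groups were apart too, with control females split into 3 higher and 2 lower animals. The difference was 1.02 ± 0.25 (adjusted p = 0.00815, 2.03-fold), and the female call was lost without any 1 PBDE female and without control female 1, 4 or 5, with adjusted p between 0.0121 and 0.0380. PBDE adults had 12.76, 12.38, 12.47, 12.54 and 11.62, against 12.10, 12.42, 12.61, 12.49 and 12.62 in control adults. The adult groups overlapped throughout, and the difference was -0.09 ± 0.25 with a 95% interval of -0.60 to 0.42 (adjusted p = 0.904).

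Gstm3, a further mu gene, rose in males of both ages. PBDE adults had 7.72, 7.75, 7.61, 8.18 and 7.59, against 6.31, 6.20, 6.73, 7.18 and 6.77 in control adults. PBDE male pups had 7.18, 6.80, 6.81, 6.30 and 6.83, against 5.89, 5.61, 6.09, 5.90 and 5.38 in control male pups. Neither pair of groups overlapped. The difference was 1.14 ± 0.19 in adults (limma adjusted p = 7.89e-04, 2.20-fold) and 1.01 ± 0.19 in male pups (adjusted p = 7.33e-04). Control male pups averaged 5.77, level with the array medians and with 2 of the 5 below them, and control female pups averaged 5.83 with 1 of the 5 below. Whether the probe set was above background there was not tested, so the sizes of the Gstm3 differences against control pups are limited by that low level. PBDE female pups had 6.82, 7.12, 5.97, 6.24 and 6.88, against 6.02, 5.91, 5.85, 5.54 and 5.86 in control female pups. One PBDE female lay inside the control range, and the difference of 0.77 ± 0.19 fell just outside the threshold of 0.01 (adjusted p = 0.0101). It passed without PBDE female 3 (0.93, adjusted p = 0.00196) or PBDE female 4 (0.86, adjusted p = 0.00676). The sex by dose test for Gstm3 gave 0.24 ± 0.27 (adjusted p = 0.981), so the call in male and not in female pups does not show a difference between the sexes.

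Gstm4, the fourth mu gene, did not pass in any dose comparison. Gstm4 in PBDE male pups was 11.06, 10.72, 11.07, 11.31 and 10.96, against 10.18, 9.83, 10.47, 10.08 and 10.55 in control male pups. These groups did not overlap, with a difference of 0.80 ± 0.25 (limma adjusted p = 0.0341), and the male groups fitted alone passed (adjusted p = 0.00360). Gstm4 in PBDE female pups was 10.88, 9.97, 11.36, 10.92 and 10.48, against 9.73, 10.23, 9.80, 9.25 and 10.48 in control female pups. The female groups overlapped, with PBDE female 2 lowest of its group, and the difference was 0.82 ± 0.25 (adjusted p = 0.0343), or 1.01 without that animal (adjusted p = 0.00890). In adults Gstm4 ran between 9.62 and 10.91 in PBDE livers and between 9.63 and 10.77 in controls, which is nearly the same range (0.14 ± 0.25, adjusted p = 0.839).

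Gstt1, the theta enzyme best known for halogenated methanes, rose in pups of both sexes. Gstt1 in PBDE male pups was 10.62, 10.14, 10.18, 10.29 and 10.35, against 9.58, 9.60, 9.61, 9.41 and 9.39 in control male pups. Gstt1 in PBDE female pups was 10.01, 10.00, 10.10, 10.17 and 10.35, against 9.37, 9.42, 9.41, 9.08 and 9.86 in control female pups. The groups were apart in both sexes. The difference was 0.80 ± 0.12 in male pups (limma adjusted p = 4.20e-05, 1.74-fold) and 0.70 ± 0.12 in female pups (adjusted p = 2.42e-04, 1.62-fold). PBDE adults had 10.28, 10.27, 9.91, 9.96 and 9.84, against 9.99, 10.38, 10.07, 10.48 and 10.11 in control adults. The adult groups overlapped, with a difference of -0.15 ± 0.12 (adjusted p = 0.573).

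Gstk1, the kappa enzyme, stood at the edge of the threshold in male pups. PBDE male pups had 12.81, 12.80, 12.49, 12.63 and 12.47, against 12.18, 12.18, 12.43, 12.05 and 12.30 in control male pups. The male pup groups did not overlap, and the difference of 0.42 ± 0.11 missed the threshold of 0.01 (limma adjusted p = 0.0102). It passed under 5 other settings of the fit, and also without PBDE male pup 5 (0.46, adjusted p = 0.00919) or control male pup 3 (0.47, adjusted p = 0.00768). The difference was 0.28 ± 0.11 in adults (adjusted p = 0.164) and 0.26 ± 0.11 in female pups (adjusted p = 0.149), and in both of these comparisons the groups overlapped.

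Gstt2, the other theta gene, gave the narrowest values. Its main probe set ran between 10.34 and 10.84 over all 30 arrays, and the PBDE difference was -0.05 ± 0.07 in adults, 0.00 ± 0.07 in male pups and 0.01 ± 0.07 in female pups. The 95% intervals ended at -0.20 and 0.09 in adults, -0.14 and 0.15 in male pups, and -0.13 and 0.16 in female pups. The second probe set gave -0.02, 0.08 and -0.01 (± 0.12 each). Only 7.65% of all genes had a smaller residual spread than Gstt2.

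Gstp1, the pi enzyme, varied most among animals. PBDE adults had 9.26, 9.05, 8.94, 8.66 and 8.52, against 9.17, 9.51, 9.30, 9.41 and 9.31 in control adults. PBDE male pups had 8.67, 8.53, 10.14, 9.52 and 8.29, against 10.26, 9.05, 10.39, 8.69 and 9.39 in control male pups. PBDE female pups had 10.03, 10.65, 11.53, 10.01 and 11.27, against 9.70, 10.59, 9.20, 8.97 and 12.31 in control female pups. The groups overlapped in every dose comparison, and the highest array of all was a control female. The difference was -0.45 ± 0.45 in adults, -0.52 ± 0.45 in male pups and 0.55 ± 0.45 in female pups (limma adjusted p = 0.679, 0.532 and 0.556). Leaving out 1 animal moved it between -0.55 and -0.36 in adults, between -0.80 (without PBDE male 3) and -0.32 (without control male 3) in male pups, and between 0.25 (without control female 4) and 1.08 (without control female 5) in female pups, and none of these passed. The SE of 0.45 uses a spread shared over all groups. The SD was 0.30 in PBDE adults and 0.13 in control adults, against 0.70 to 1.36 in the pup groups. That SE may therefore be too wide for adults. Of the PBDE adults, only 9.26 lay above the lowest control adult, at 9.17. Over the alternative settings of the fit and the leave-outs, the limma adjusted p in adults ran between 0.142 and 0.801 and did not pass. The within-group SD of Gstp1 ran between 0.13 in control adults and 1.36 in control female pups, and its residual spread was larger than that of 99.6% of genes. Gsta3 came next among the 10 genes, larger than 99.0% of genes, with an SD between 0.15 in control male pups and 1.20 in control adults.

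**Figure D2:**
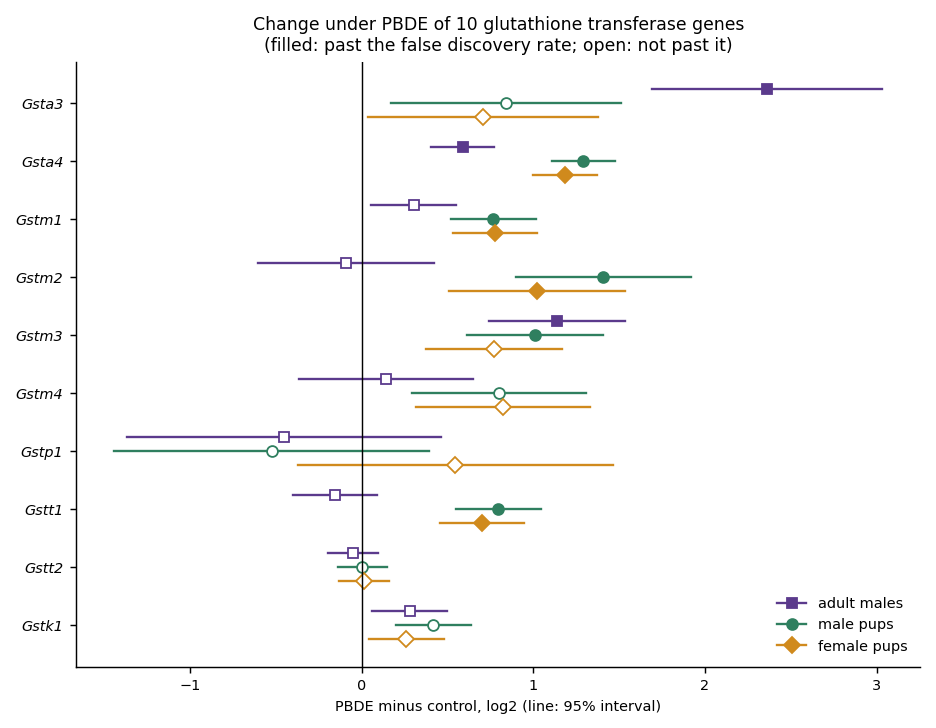
PBDE minus control on the log2 scale for each glutathione transferase in adult males, male pups and female pups; lines are 95% intervals from the limma fit, filled marks passed the false discovery rate of that comparison and open marks did not. Gsta4 is filled in all 3 comparisons, Gsta3 in adults alone, and Gstm2 and Gstt1 in both sets of pups while their adult marks lie at -0.09 and -0.15.

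Counted by overlap alone, all 5 PBDE animals lay above all 5 controls for 4 of the 10 genes in adults, 8 in male pups and 5 in female pups. The same held for 2.44%, 6.77% and 6.56% of all genes. In male pups the 2 exceptions were Gstp1 and Gstt2. At an unadjusted p under 0.05, 5 of the 10 genes passed in adults, 8 in male pups and 8 in female pups, and of all genes 18.5%, 28.3% and 25.4%.

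The PBDE effects in adult males and in male pups each lay within 1 array batch, and their difference was tested as the age by dose term, adult effect minus pup effect, at a false discovery rate of 0.05. It passed for Gsta4, Gstm2 and Gstt1, all with a more negative term, that is, a smaller effect in adults. That is 3 of 10 genes, where 1.35% of all genes were called in that direction, and 1.13% of all genes and 0 of the 10 in the opposite one. For Gsta4 the term was -0.70 ± 0.13 (limma adjusted p = 0.00284): the gene rose at both ages, by less in adults. For Gstt1 it was -0.95 ± 0.17 (adjusted p = 0.00250). For Gstm2 it was -1.50 ± 0.35 (adjusted p = 0.0219), and that call was lost without PBDE male pup 4 (-1.39, adjusted p = 0.0516) or control male pup 2 (-1.34, adjusted p = 0.0503). Gsta3 had a positive term and did not pass (1.52 ± 0.46, adjusted p = 0.0883). It passed without control adult 1 (1.86, adjusted p = 0.0128) or control adult 2 (1.79, adjusted p = 0.0366), the 2 control adults with the highest Gsta3. The term for Gstm3 was 0.13 ± 0.27 with a 95% interval of -0.43 to 0.69 (adjusted p = 0.895). Among the other 5 genes it ran between -0.66 for Gstm4 and 0.07 for Gstp1, with none past the threshold.

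The levels behind these terms fell into several orders. Gstm2 averaged 12.35 ± 0.43 in PBDE adults and 12.44 ± 0.21 in control adults, against 11.95 ± 0.28 in PBDE male pups and 10.54 ± 0.53 in control male pups (SD, n = 5 each). Gstt1 averaged 10.05 ± 0.21 in PBDE adults and 10.21 ± 0.21 in control adults, against 10.32 ± 0.19 in PBDE male pups and 9.52 ± 0.11 in control male pups. In both genes the control pups of either sex were the 2 lowest groups of the 6 by their means. For Gstm2 they lay below the other 4 without overlap; for Gstt1 the control males did, while 1 control female lay inside the range of PBDE adults. Neighbouring groups among the other 4 overlapped. Gsta4 ran in another order: PBDE female pups at 12.78 ± 0.15 and PBDE male pups at 12.75 ± 0.18 overlapped each other, PBDE adults at 11.80 ± 0.07 lay below them and apart, and the 3 control groups lay below those. Gsta3 averaged 9.74 ± 0.42 in PBDE adults and 7.38 ± 1.20 in control adults, against 11.82 ± 0.23 in PBDE male pups and 10.98 ± 0.15 in control male pups. Every pup, PBDE or control, lay above every adult for Gsta3.

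**Figure D3:**
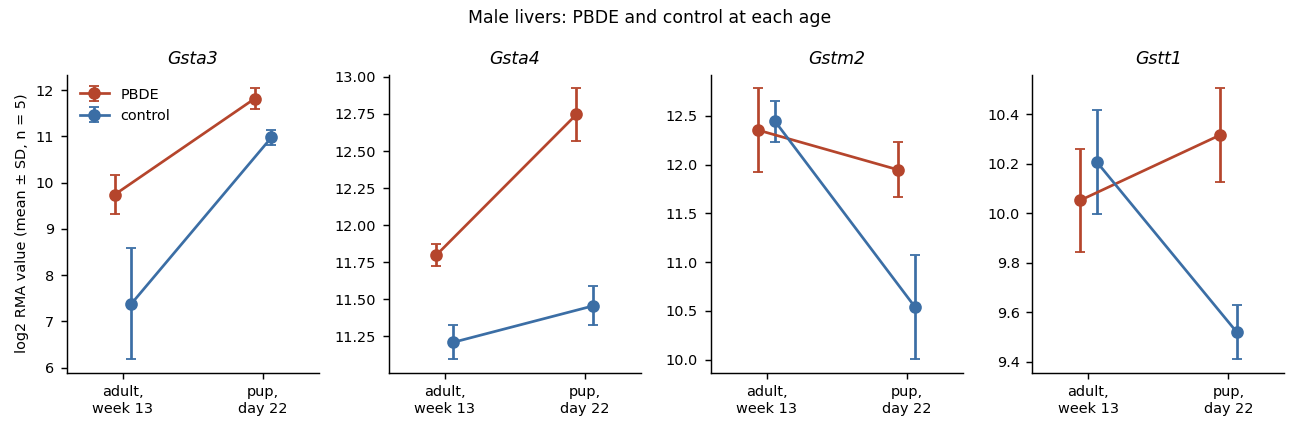
Group means of log2 expression with SD (n = 5) for adult males and male pups, PBDE and control drawn as separate lines, for 4 glutathione transferases. For Gstm2 and Gstt1 the PBDE and control means lie close together in adults and apart in pups, and for Gsta3 both lines are lowest in adults.

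Adults and pups of the same dose lay in different array batches, so age and batch cannot be told apart in the next values. Control adults minus control male pups passed at 0.01 for 4 of the 10 genes, 3 higher and 1 lower, where 6.91% and 12.8% of all genes were called in those directions. Gsta3 was lower in adults by a log2 difference of -3.60 ± 0.33 (limma adjusted p = 1.92e-09), a 12.1-fold lower level. Gstm2 was higher by 1.90 ± 0.25 (adjusted p = 1.27e-06, 3.75-fold), Gstm3 by 0.86 ± 0.19 (adjusted p = 0.00137) and Gstt1 by 0.69 ± 0.12 (adjusted p = 8.04e-05). The size for Gstm3 is limited by its level in control male pups, which lay at the array medians. PBDE adults minus PBDE male pups passed for 3 genes, 1 higher and 2 lower, where 2.73% and 8.26% of all genes were called. Gsta3 was lower by -2.08 ± 0.33 (adjusted p = 3.85e-05), Gsta4 lower by -0.95 ± 0.09 (adjusted p = 7.12e-09) and Gstm3 higher by 0.99 ± 0.19 (adjusted p = 5.99e-04). Set against PBDE female pups, which shared a batch with the adults but differ in sex, PBDE adults differed by -2.26 in Gsta3, -0.98 in Gsta4 and 1.16 in Gstm3, and Gstp1 passed as well (-1.81, adjusted p = 0.00488). The 2 probe sets of Gstt2 gave opposite signs between control adults and control male pups, -0.11 and 0.35, and neither passed.

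In limma, with animals treated as unpaired, male and female pups did not differ in any of the 10 genes past the threshold of 0.01. Between control pups, within 1 batch, 0 of 10 genes passed, where 0.0422% of all genes did, and 0 of 10 had an unadjusted p under 0.05. The male minus female difference ran between -0.60 ± 0.45 for Gstp1 and 0.32 ± 0.25 for Gstm4, and the 95% intervals reached as far as -0.99 for Gsta3 and -1.52 for Gstp1. Leaving out 1 animal moved the Gstp1 difference between -0.90 (without control female 4) and -0.06 (without control female 5, the highest array of that gene), and the Gstm4 difference between 0.16 and 0.47. Between PBDE pups, across batches, 0 of 10 passed, where 0.0563% of all genes did. Gstp1 averaged 9.03 ± 0.77 in PBDE males and 10.70 ± 0.70 in PBDE females (SD, n = 5 each). That difference of -1.67 ± 0.45 was the 1 of the 10 with an unadjusted p under 0.05, and it did not pass after adjustment (adjusted p = 0.359). The sex by dose term passed for 0 of the 10 genes and for 0 of all genes, with 0 of the 10 and 5.63% of all genes at an unadjusted p under 0.05.

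One control female pup, animal 4, was the lowest of its group in all 10 genes, where 30.4% of all genes had their lowest value in that animal. It lay below the mean of the other 4 by differences of -0.24 to -1.48 on the log2 scale. The same array had the lowest 3′ minus 5′ difference of its group for the Gapdh control probe sets (0.752, where the other 4 ran between 1.09 and 2.10) and for those of Actb (2.23, where the others ran between 2.57 and 3.47). Its mean correlation with the other 4, 0.9915, was also the lowest of the 5, next to 0.9919. The part of RNA quality in its low transferase values was not tested. Without it the PBDE difference in female pups was 1.11 for Gsta4, 0.67 for Gstm1, 0.81 for Gstm2 and 0.61 for Gstt1. The calls of Gsta4, Gstm1 and Gstt1 held without it (limma adjusted p = 1.14e-09, 3.24e-04 and 0.00132) and that of Gstm2 did not (adjusted p = 0.0380). Gstk1 in female pups differed by 0.13 without it.

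**Figure D4:**
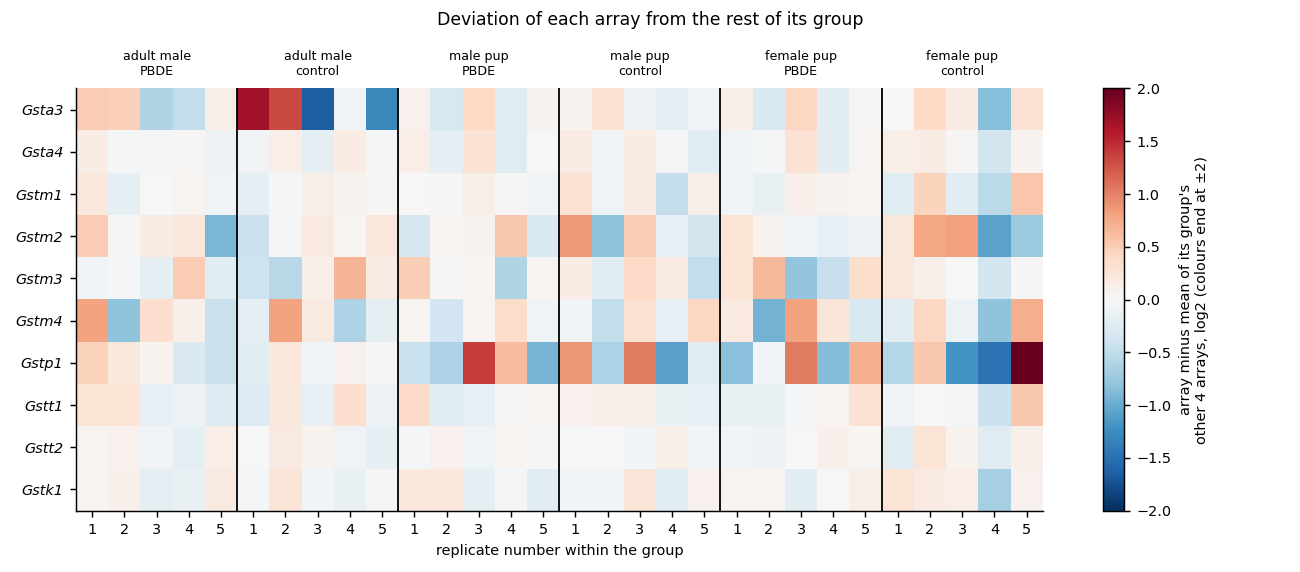
Each array's deviation from the mean of the other 4 arrays of its group, log2, for the 10 glutathione transferases in rows and the 30 arrays in columns; red is above and blue below, and colours end at ±2. The column of control female pup 4 is blue in all 10 rows, and the strongest colours stand in the Gsta3 row among control adults and in the Gstp1 row among pups.

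Over all 30 arrays, the genes whose values ran most like 3 of these members were read by Pearson's r, as a description; the points share group, dose and batch. For Gsta3 they were Car2 (0.919), Ugt2b34l1 (0.914) and Eif1ax (0.909). For Gsta4 they were Ttc39a (0.947), the theta transferase Gstt3 (0.946) and Ccdc85c (0.944). For Gstm2 they were Bcap31 (0.931), Mettl7a (0.917) and Fbxo44 (0.896). Once the group means were taken out, r fell to between 0.16 and 0.66 for these 9 pairs.

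Outside the 10, a further 10 transferase genes of 16 listed could be read. Of these 0 passed in adults, with 5 at an unadjusted p under 0.05 in limma, as had 18.5% of all genes. In each pup comparison 2 rose, Gstt3 and Gsta1. The median difference of these further 10 genes was -0.02 in adults, 0.06 in male pups and 0.16 in female pups. Gstt3 differed by 0.32 ± 0.12 in adults (limma adjusted p = 0.142), 0.97 ± 0.12 in male pups (adjusted p = 1.22e-06) and 0.79 ± 0.12 in female pups (adjusted p = 2.97e-05). Gsta1 differed by 0.17 ± 0.06 (adjusted p = 0.172), 0.38 ± 0.06 (adjusted p = 2.04e-04) and 0.28 ± 0.06 (adjusted p = 0.00457) in the same order. Among 6 genes of the membrane-bound family, Mgst2 rose in all 3 comparisons by 0.45, 0.54 and 0.55 ± 0.09 (adjusted p = 0.00300, 1.22e-04 and 9.40e-05). Mgst1, the abundant microsomal transferase, stayed within 0.03 of its controls in all 3 and did not pass.

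The genes that make and recycle glutathione numbered 14. Of these, 0 passed in adults, 3 rose and 1 fell in male pups, and 2 rose and 1 fell in female pups; the age by dose term passed for 0 of them. At an unadjusted p under 0.05 in limma the counts were 1 in adults, 8 in male pups, 10 in female pups and 5 for age by dose. The shares of all genes at that p were 18.5%, 28.3%, 25.4% and 16.1% in the same order. The median difference of the 14 genes was -0.04 in adults, 0.24 in male pups and 0.31 in female pups. Gsr, which reduces oxidised glutathione, differed by 0.18 ± 0.17 in adults (limma adjusted p = 0.660), 0.94 ± 0.17 in male pups (adjusted p = 4.02e-04) and 0.70 ± 0.17 in female pups (adjusted p = 0.00756). Glrx, a glutaredoxin, rose by 0.60 ± 0.11 in male pups and 0.69 ± 0.11 in female pups. Txnrd1, a thioredoxin reductase, rose in male pups by 0.50 ± 0.12. Of the enzymes that degrade glutathione, Chac1 fell by 0.87 ± 0.20 in male pups and Chac2 fell by 0.62 ± 0.13 in female pups. Gclc and Gclm, the 2 subunits of the rate-limiting enzyme of glutathione synthesis, passed in no comparison, with differences of -0.17 and -0.09 in adults, 0.29 and 0.44 in male pups, and 0.47 and 0.56 in female pups. Of 7 glutathione peroxidase genes, Prdx6 included, 0 passed in any of the 3, with 2 in adults, 3 in male pups and 2 in female pups at an unadjusted p under 0.05.

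**Figure D5:**
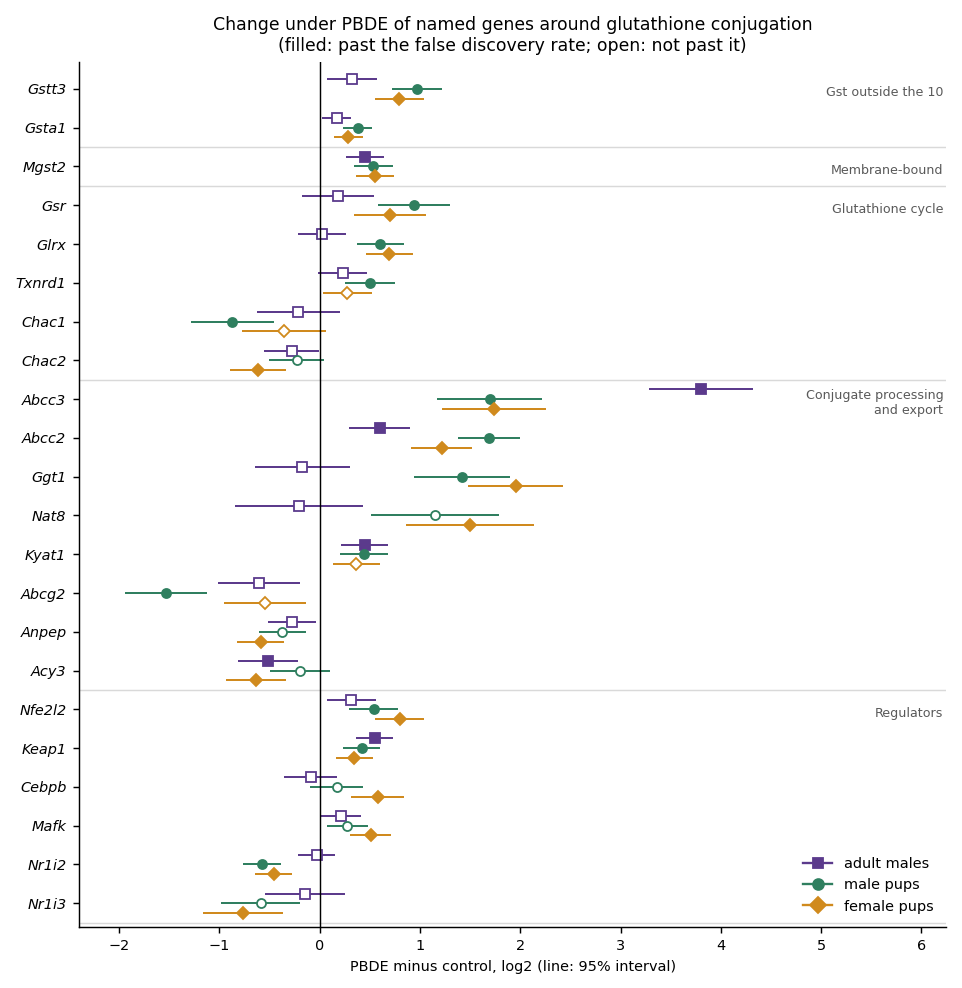
PBDE minus control on the log2 scale, with 95% intervals, for named genes around glutathione conjugation in adult males, male pups and female pups; filled marks passed the false discovery rate. Abcc3 lies farthest right, at 3.81 in adults, and the marks of Ggt1 and Gsr are filled in pups and open in adults.

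Of 17 genes read that process and export conjugates, 3 rose and 2 fell in adults, 4 rose and 1 fell in male pups, and 5 rose and 2 fell in female pups. Their median difference was -0.09 in adults, 0.06 in male pups and 0.23 in female pups. Abcc3, a basolateral exporter of conjugates, rose by 3.81 ± 0.25 in adults, 1.69 ± 0.25 in male pups and 1.73 ± 0.25 in female pups (limma adjusted p = 3.05e-11, 2.77e-05 and 2.28e-05). Abcc2, the canalicular exporter, rose by 0.60, 1.69 and 1.21 ± 0.15 (adjusted p = 0.0183, 3.80e-09 and 1.50e-06). Ggt1, which begins the breakdown of glutathione conjugates, rose by 1.42 ± 0.23 in male pups and 1.95 ± 0.23 in female pups, and differed by -0.17 ± 0.23 in adults (adjusted p = 0.769). Nat8, which acetylates cysteine conjugates, rose in female pups by 1.50 ± 0.31 and differed by 1.15 ± 0.31 in male pups (adjusted p = 0.0135). Abcg2, an exporter of another family, fell by 1.53 ± 0.19 in male pups.

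Among 16 regulators read, 1 rose in adults, 3 rose and 1 fell in male pups, and 4 rose and 2 fell in female pups. Nfe2l2, which encodes NRF2, differed by 0.32 ± 0.11 in adults (limma adjusted p = 0.137), 0.54 ± 0.11 in male pups (adjusted p = 0.00207) and 0.80 ± 0.11 in female pups (adjusted p = 2.25e-05). Keap1, the inhibitor of NRF2, rose in all 3, by 0.55, 0.42 and 0.35 ± 0.09. Nr1i2, which encodes PXR, fell by 0.58 ± 0.09 in male pups and by 0.46 ± 0.09 in female pups, and Nr1i3, which encodes CAR, fell by 0.76 ± 0.19 in female pups. Of 6 index genes of induction, 5 rose in every comparison. Cyp1a1, the index gene of aryl hydrocarbon receptor activity, rose by 6.56, 4.74 and 5.31 ± 0.44, and Nqo1, a target of NRF2 and of that receptor, by 0.97, 1.90 and 1.18 ± 0.26, for adults, male pups and female pups.

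Markers of other liver cells also differed between PBDE and control livers. The summed level of 7 cholangiocyte markers, on the log2 scale, ran between 9.65 and 10.20 in PBDE adults against 8.78 and 9.27 in control adults, between 10.02 and 10.62 in PBDE male pups against 9.24 and 9.74 in control male pups, and between 9.75 and 10.35 in PBDE female pups against 9.29 and 9.72 in control female pups. Of these 7, 1 passed in each comparison, Epcam, which rose by 1.13, 1.07 and 0.92 ± 0.18, and the defining keratins Krt19 and Krt7 did not pass. Between 3 and 5 of the 7 lay below the array median, depending on the group. The summed level of 10 Kupffer cell markers ran between 12.52 and 13.14 in PBDE adults against 13.06 and 13.50 in control adults, and between 12.47 and 12.79 in PBDE male pups against 12.79 and 13.16 in control male pups. In female pups it ran between 12.68 and 12.99 against 12.56 and 13.71. Of those 10, 1 fell in adults, 2 in male pups and 0 in female pups, with 8, 5 and 1 at an unadjusted p under 0.05 in limma. Of 9 endothelial markers, 0 fell in adults, 3 in male pups and 1 in female pups, with 1, 5 and 4 at an unadjusted p under 0.05. Their summed level ran between 12.15 and 12.59 in PBDE adults against 12.30 and 12.56 in control adults, between 12.10 and 12.42 in PBDE male pups against 12.67 and 12.93 in control male pups, and between 12.23 and 12.57 in PBDE female pups against 12.67 and 12.89 in control female pups. The summed level of 9 hepatocyte markers was narrowly lower under PBDE without overlap, between 17.50 and 17.58 in PBDE adults against 17.60 and 17.66 in control adults, between 17.50 and 17.58 in PBDE male pups against 17.60 and 17.67 in control male pups, and between 17.51 and 17.55 in PBDE female pups against 17.65 and 17.68 in control female pups. Of these 9, 0 passed in adults, 1 fell in male pups and 2 fell in female pups, with 0, 4 and 6 at an unadjusted p under 0.05 in limma. Of 10 stellate cell markers, 1 rose in adults, 1 rose and 1 fell in male pups, and 2 fell in female pups. Of 7 erythroid and 8 lymphocyte markers 0 passed in any dose comparison, with 0, 0 and 5 erythroid and 0, 2 and 1 lymphocyte markers at an unadjusted p under 0.05 in adults, male pups and female pups. The shares of all genes at an unadjusted p under 0.05 in limma were 18.5% in adults, 28.3% in male pups and 25.4% in female pups. The part of these cell types in the transferase values was not tested.

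The 3′ minus 5′ difference of the Gapdh control probe sets, a measure of RNA integrity and labelling length, had higher means in the PBDE groups. It averaged 1.17 ± 0.62 in PBDE adults and 0.62 ± 0.18 in control adults, 2.09 ± 0.65 in PBDE male pups and 1.61 ± 0.33 in control male pups, and 1.93 ± 0.30 in PBDE female pups and 1.26 ± 0.50 in control female pups (log2, SD, n = 5 each). The two-sided exact permutation p was 0.0238, 0.198 and 0.0397, and 0.0595, 0.198 and 0.0595 after Benjamini-Hochberg adjustment over the 3; the smallest p that 5 against 5 allows is 0.00794. With this measure as a covariate, 3 of the 10 transferases passed in adults, 5 in male pups and 4 in female pups.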

How the data were processed

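Liver RNA of 30 rats was measured on Affymetrix rat genome arrays. Per the labels, the authors used RMA, and the values they deposited are on the log2 scale. The program that ran RMA is not given in the sources used here. RMA fits all arrays together and shrinks differences of dim probe sets. Of 31099 probe sets, 57 controls were set aside and 31042 tested; 20826 named 1 gene, 436 several and 9780 none. Unused value columns numbered 0.

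The group means were estimated jointly over the 30 arrays in limma 3.58.1 (R 4.3.3), with eBayes statistics and Benjamini-Hochberg adjustment. The series design names the contrasts, except the 2 between ages at 1 dose, and the thresholds of 0.01 for pups and 0.05 for rats; 0.05 also served age by dose. limma replaced R/maanova, which the design text names. Named genes were the 10 members, genes of pathway and cell type lists, and the 3 genes most like the member with the largest change in each dose comparison. Members and lists were chosen with earlier results of these data known. A list's summed level is the log2 of the sum of its unlogged values. Promoter windows came from RefSeq GRCr8, with Python 3.11.15. Data were simulated with 100 probe sets of 31042 changed by 1 on the log2 scale and 100 by 0.5. The fit recovered 93% of those changed by 1 in adults, 96% in male pups and 98% in female pups. At 0.5 it recovered 71%, 64% and 52%. Fewer probe sets changed there than were called in the data in adults or in pups, so these shares need not hold for the transferases. In the main fit animals were treated as unpaired. Pooled over all pairs of groups, 18 of 75 same-number pairs had a residual correlation over 0.1. A pairing of male with female pups by number was not checked by itself. Alternatives were trended and robust eBayes, the compared groups alone, a replicate block, repeated quantile normalization, a filter on low values, the mean of a gene's probe sets, the Gapdh covariate, a same-batch age contrast, and leaving out each animal.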

Additional observations from a re-analysis of the deposited data

Results flagged for a closer look

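In 4 of 66 groups of 5 values, 1 array stood apart from the other 4; by chance about 1 in 20 such groups does. Gsta4 in control female pup 4 was 11.30, below 11.61 to 11.72 in the other 4. Gstk1 in the same animal was 11.74, below 12.34 to 12.48. Gstm3 in PBDE adult male 4 was 8.18, above 7.59 to 7.75 in the others. Gstt2 on its main probe set in control male pup 4 was 10.75, above 10.61 to 10.65.

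The PBDE effect differed between adult males and male pups for 3 genes, tested as the adult effect minus the pup effect. The difference was -0.70 for Gsta4, -1.50 for Gstm2 and -0.95 for Gstt1 on the log2 scale.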

How the results depend on the processing

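Across the alternatives, 174 of 174 counts of transferases called stayed within 1.5 times the reported count. That rule is wide for counts this small, and the sex and sex by dose counts were 0 under every setting. Of 1740 single-gene values, 12 lost their call and 18 gained one, and 0 with a call in either fit reversed. Values without a call in both fits were not compared by sign, and some changed it. Gstm2 in adults, at -0.09, reached 0.09 when 1 animal was left out. In adults 3 genes passed under every setting. In male pups the count was 7 with the compared groups alone, 5 with the Gapdh covariate, 6 under the other settings that kept all animals, and 5 to 6 when 1 animal was left out. In female pups it was 3 with trended eBayes and with the compared groups alone, 5 with repeated quantile normalization, the low-value filter and the mean of probe sets, 4 with the covariate, and 3 to 4 when 1 animal was left out. The age by dose count was 3, or 2 to 4 when 1 animal was left out. Replicate numbers name no shared dam. The mean residual correlation, pooled over all pairs of groups, was 0.00417 for same-number pairs and -9.06e-04 for others. Of 30 arrays, 11 resembled an own-number array of another group most. The count that unpaired animals would give was not computed, so these values do not decide whether the numbers pair animals. With a replicate block the counts were 3 in adults, 6 in male pups, where Gstk1 was added (adjusted p = 0.00597), 4 in female pups and 3 for age by dose, and no other transferase changed its call. With trended eBayes Gstm2 lost its female call (adjusted p = 0.0141), as with the compared groups alone (adjusted p = 0.0271). Gstm3 in female pups passed with repeated quantile normalization (adjusted p = 0.00940), the filter (adjusted p = 0.00690) and the mean of probe sets (adjusted p = 0.00770). The cause of these changes was not tested. The 5 animals per group limit precision. In simulated data with 100 probe sets changed by 0.5 on the log2 scale, such changes were often missed in pups at these thresholds. In the data, 924 probe sets were called in adults, 1654 in male pups and 1315 in female pups. The simulated shares therefore need not hold for these genes.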
